A study of Homo sapiens with 12 samples.

Results

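H3K27ac regions of chromosomes 10 and 12 were followed from the established human line Caki-1, of a renal cell carcinoma, into its cabozantinib-resistant derivative. A region is a stretch of the genome covered by peaks of the 4 deposited H3K27ac lists, joined wherever they share 1 bp or more. Of 89076 such regions, 9712 lie on these chromosomes, 4486 on chromosome 10 and 5226 on chromosome 12. A region is called lost where both parental libraries and neither resistant library had a peak, gained in the reverse case, shared where each line had a peak in at least 1 library, and single where 1 library alone had a peak. These names describe peak lists, not a measured event in the cells.

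H3K27ac is acetylation of lysine 27 on histone H3. The acetyl group is written by the coactivators p300 and CBP and removed by histone deacetylases, and it marks active promoters and enhancers. A peak is a place where immunoprecipitated DNA piles up above its surroundings, so a weak place can be called in one library and missed in the next, while a strong one tends to be found in all of them.

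Each line gave 2 H3K27ac, 2 RNA and 2 input DNA libraries, and the inputs were not analysed here. The parental cells were the wild-type line, grown in RPMI 1640 with no drug named. The resistant cells came from growth in McCoy's 5A with cabozantinib, a kinase inhibitor of MET, AXL and VEGF receptors, raised from 5 to 20 µM over 2 months, and were then kept in 10 µM. The drug, the medium and the selection separate the lines at once and cannot be told apart. The labels do not say whether the resistant line is 1 clone or whether replicates were separate cultures, so every spread below is that between libraries and may be technical.

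The 4 lists hold 52367 to 57975 peaks. Peaks were wider in replicate 2 of each line, with medians of 924 bp (parental) and 1041 bp (resistant), than in replicate 1, at 674 and 604 bp. Each peak carries a score of the authors, whose meaning is not given in the sources used here and whose minimum was just above 2. Coordinates are hg19. RNA libraries summed to 10605109 and 10584085 (parental) and 14664712 and 12851392 (resistant) estimated counts. The resistant RNA libraries differed from each other far more than the parental ones did, with a chi-square statistic per gene of 46.4 against 1.93. Of 8 renal markers in the RNA table, the nuclear factor PAX8 was at 372 to 557 CPM (counts scaled to a fixed library total), while PAX2 was at 0 in all 4 libraries and CA9 had at most 14 counts. These 8 summed to 5225 and 5253 CPM in the parental libraries, against 3977 and 4417 in the resistant libraries, and VIM, itself on chromosome 10, made up most of that. Of 9 markers of blood, endothelial, stromal and liver cells, CD3E and CDH5 were at 0 in every library. The stromal markers PDGFRB and COL1A1 were at 19.1 to 23.6 and 6.68 to 22.25 CPM. The 9 summed to 58.2 and 55.7 CPM in the parental libraries, against 30.1 and 34.7 in the resistant libraries.

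Both chromosomes held a smaller part of the peak list in each resistant library than in each parental library. On chromosome 10 there were 3088 and 3126 parental peaks, which is 5.63% and 5.39% of those lists, against 2464 and 2521 resistant peaks, or 4.71% and 4.77%. On chromosome 12 there were 3437 and 3777 parental peaks (6.27% and 6.52%) against 2568 and 2873 resistant peaks (4.90% and 5.44%). The lines did not overlap on either chromosome, and the other chromosomes were not counted this way. Of all DNA under a library's peaks, chromosome 10 held 5.8% and 5.5% in the parental libraries against 4.7% and 4.9% in the resistant ones. Chromosome 12 held 6.6% and 6.9% against 4.9% and 5.6%. In length, the peaks of all chromosomes covered 56.3 and 84.9 Mb (parental) and 46.0 and 86.8 Mb (resistant). Chromosome 10 had 3.27 and 4.71 Mb covered in parental replicates 1 and 2 against 2.17 and 4.25 Mb in the resistant ones, and chromosome 12 had 3.73 and 5.85 Mb against 2.27 and 4.85 Mb. Read across replicate numbers the covered lengths of the lines overlap, and replicate 2 of both lines covered more.

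The regions were counted by class to show how far loss outweighs gain. On chromosome 10, 254 regions were lost (5.66%, 95% exact binomial interval 5.00 to 6.38%) and 104 were gained (2.32%, 1.90 to 2.80%). On chromosome 12, 311 were lost (5.95%, 5.33 to 6.63%) and 121 were gained (2.32%, 1.93 to 2.76%). Over all chromosomes the lost share was 3.92% and the gained share 3.43%. Lost regions thus outnumbered gained ones 2.44 to 1 on chromosome 10 and 2.57 to 1 on chromosome 12, against 1.04 to 1 over the other chromosomes. The counts of peaks by line chose these classes, so they are given as a description with no test, and the intervals cover counting error only. Leaving a library out widens the class of its line to 1 library. The lost share of chromosome 10 then was 29.4% and 23.1% without parental replicate 1 and 2, and 7.64% and 13.9% without resistant replicate 1 and 2. On chromosome 12 the same 4 values were 32.9%, 23.6%, 7.37% and 15.5%. Each stood above the share of all chromosomes counted the same way, by 1.229 to 1.401 times. The gained share was below that of all chromosomes in the same 8 recounts, at 0.635 to 0.776 times.

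Among the 23 chromosomes (1 to 22 and X), chromosome 12 had the second-highest lost share and chromosome 10 the third, after chromosome 6 at 6.47%. Their gained shares ranked 22nd and 21st. Most members were in neither class. Shared regions numbered 1859 on chromosome 10 and 2143 on chromosome 12, of which 962 and 1082 had a peak in all 4 lists. Regions seen in a single library numbered 2269 and 2651. Even these leaned to the parental line. On chromosome 10, 1436 were parental and 833 resistant, and on chromosome 12, 1796 were parental and 855 resistant, whereas over all chromosomes the counts were 23574 and 20902.

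The same lost and gained regions can be set against the regions that both libraries of a line had. Of 1584 such regions on chromosome 10, 16.0% had no peak in either resistant library, and of 1854 on chromosome 12, 16.8%, against 11.3% on the other chromosomes. In the other direction, 8.46% of the 1229 regions that both resistant libraries had on chromosome 10, and 9.05% of the 1337 on chromosome 12, had no parental peak, against 11.7% on the other chromosomes. These shares restate the class counts over another denominator.

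Lost and gained regions were narrow and weakly scored next to the regions that all 4 lists held. The median width of a lost region was 996 bp on chromosome 10 and 1026 bp on chromosome 12, and of a gained region 985 and 1130 bp. Regions in all 4 lists had median widths of 2869 and 2946 bp, and single-library regions 514 and 509 bp. For each region with both parental peaks, the lower of the 2 libraries' highest scores is its weaker parental score. Its median was 4.09 and 3.90 in the lost regions of chromosomes 10 and 12, and 12.2 and 12.5 in the regions of all 4 lists. Lost regions lay a median of 12.04 kb (chromosome 10) and 11.5 kb (chromosome 12) from the nearest region held by all 4 lists, against 14.99 kb for lost regions elsewhere. Other classes of chromosomes 10 and 12 lay at similar distances, with medians of 10.33 and 12.44 kb (gained), 12.98 and 13.65 kb (single) and 13.14 and 14.01 kb (shared).

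Loss was most frequent in weak regions, and its share was larger than elsewhere on both chromosomes in 4 of 5 score bands. Where the weaker parental score was 2 to 3, 46.1% of 115 regions on chromosome 10 and 51.3% of 154 on chromosome 12 were lost, against 33.9% of 1735 on the other chromosomes. From 3 to 5 the shares were 33.4%, 32.6% and 26.2%, and from 5 to 10 they were 14.3%, 15.6% and 9.40%. From 10 to 20 they were 4.66% (17 of 365, interval 2.74 to 7.35%), 2.75% (12 of 436, 1.43 to 4.76%) and 0.941% (60 of 6379). At scores of 20 or more, 0 of 277 regions on chromosome 10 were lost, which allows a share of up to 1.08% by a limit of 3 counts (1.32% by the two-sided exact interval), and 1 of 309 on chromosome 12, against 9 of 3550 elsewhere. In that top band these counts cannot tell the chromosomes apart. Gained regions showed the opposite lean, with 27.3% of 88 and 27.4% of 62 regions of the weakest resistant band lacking a parental peak, against 35.8% of 1432 elsewhere.

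**Figure D1:**
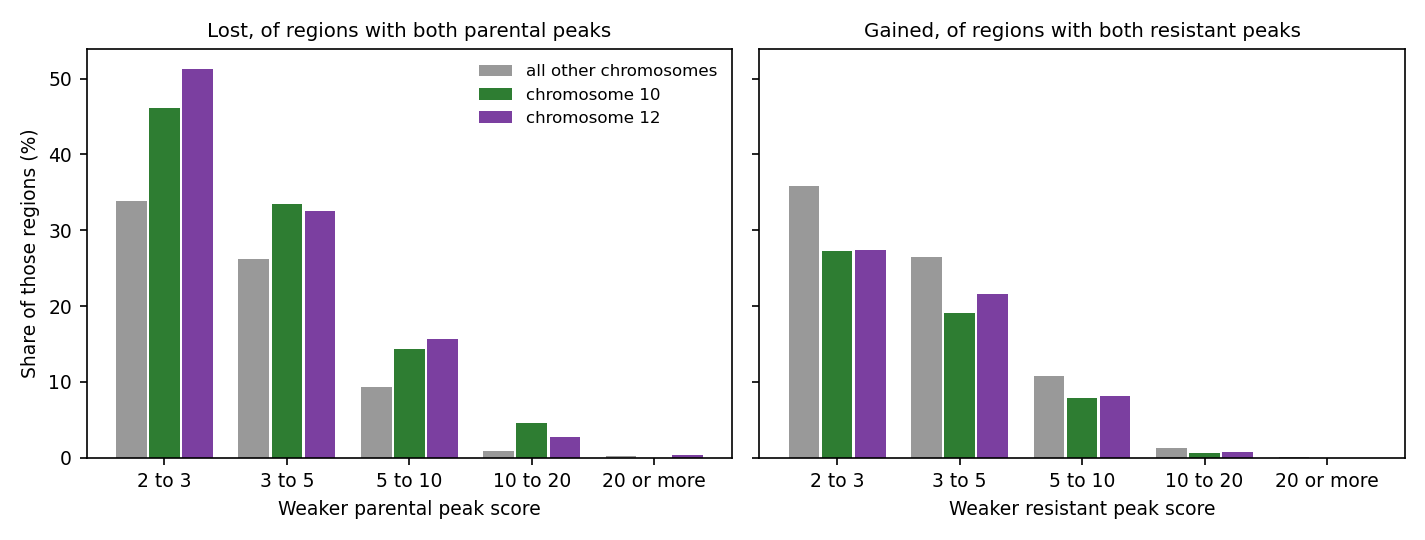
Share (%) of regions with peaks in both parental libraries that had none in the resistant line (left), and the reverse (right), by the weaker score of the 2 libraries, for chromosomes 10 and 12 and all other chromosomes. The bars of chromosomes 10 and 12 stand above the grey bar on the left for scores below 20, as at 46.1% and 51.3% against 33.9% for scores of 2 to 3, and below it on the right, as at 27.3% and 27.4% against 35.8%.

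Whether loss was even along each chromosome was read in bins of 10 Mb, 14 per chromosome, each with at least 56 regions. Lost regions outnumbered gained ones in 13 of 14 bins of chromosome 10 and in 14 of 14 bins of chromosome 12, against 51.2% of 301 bins over all chromosomes. The lost share stood above that of all chromosomes in 11 of 14 bins of chromosome 10 and 14 of 14 of chromosome 12, against 120 of 301 bins over all chromosomes. The 95% interval of every bin held its own chromosome's share on both chromosomes. At this depth no 10-Mb bin stood apart from its chromosome in lost share, which is not evidence that the bins are alike, as most intervals span several percentage points.

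The lowest lost share on chromosome 10 was in the end bin from 130 to 140 Mb, with 1 lost and 4 gained of 59 regions (1.70%, 0.0429 to 9.09%). It is the bin of that chromosome with more gained than lost regions. The highest was from 40 to 50 Mb, just past the centromeric gap, with 10 lost and 2 gained of 122 regions (8.20%, 4.001 to 14.6%). The lost share on chromosome 12 ran from 4.02% at 90 to 100 Mb (17 of 423) to 7.64% at 120 to 130 Mb (35 of 458). From the lowest to the highest bin the range was 3.62 percentage points on chromosome 12 and 6.50 on chromosome 10. Both ends on chromosome 10 rest on bins of 59 and 122 regions with wide intervals. The ranges therefore do not show that chromosome 12 was more even.

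Some bins had few or no gained regions. From 20 to 30 Mb on chromosome 12, on the short arm, 26 regions were lost and 1 was gained of 382. From 80 to 90 Mb on its long arm, 17 were lost and 1 gained of 227. From 50 to 60 Mb on chromosome 10, 5 were lost and 0 gained of 136, which allows a gained share of up to 2.21% by the limit of 3 counts and 2.68% by the two-sided exact interval. At the other end, the bin from 30 to 40 Mb on chromosome 12, which spans the centromeric gap, had 13 lost and 11 gained of 216 regions. It had a gained share of 5.09% (2.57 to 8.93%), the highest on that chromosome.

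**Figure D2:**
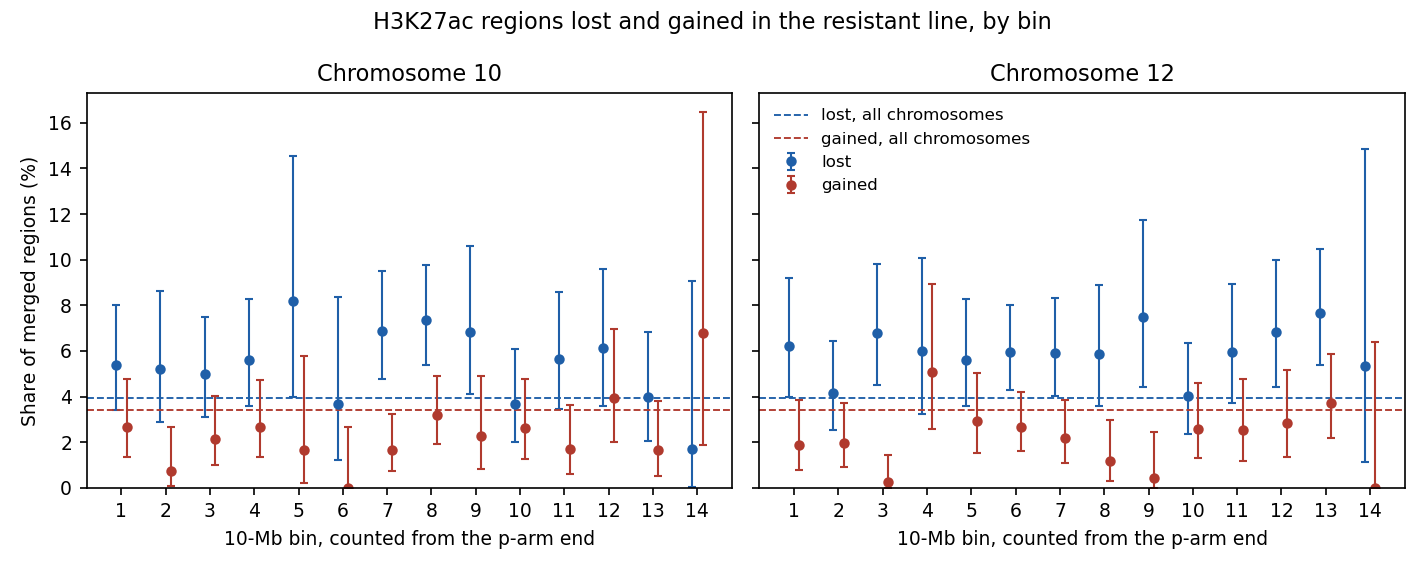
Share (%) of merged regions lost (blue) and gained (red) in each 10-Mb bin, counted from the p-arm end, with 95% exact binomial intervals. Dashed lines are the shares over all chromosomes, 3.92% lost and 3.43% gained. Lost shares lie above gained shares in 13 of 14 bins of chromosome 10 and in 14 of 14 bins of chromosome 12.

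With bins of 5 Mb, the intervals of 24 of 27 bins of chromosome 10 and 27 of 27 of chromosome 12 held the chromosome's share. Exact intervals of 95% miss in at most 1 of 20 cases by construction. Here 3 of 54 missed, all of them on chromosome 10, and whether this is structure was not tested. The 3 bins, named after their values were seen, lie on the long arm of chromosome 10. From 110 to 115 Mb, 3 of 152 regions were lost (1.97%, 0.409 to 5.66%), while from 115 to 120 Mb, 14 of 126 were (11.1%, 6.21 to 17.9%). From 125 to 130 Mb, 2 of 156 were lost (1.28%, 0.156 to 4.55%). With bins of 20 Mb the stretch from 60 to 80 Mb stood above the chromosome's share, at 77 lost of 1079 regions (7.14%, 5.67 to 8.84%). The intervals of this stretch and of the bin from 110 to 115 Mb missed the chromosome's share of 5.66% only narrowly. The intervals of 6 of 7 bins of 20 Mb on chromosome 10 and 7 of 7 on chromosome 12 held the chromosome's share.

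The arms were split at the longest stretch without a peak, 3.71 Mb from 38692829 to 42399259 on chromosome 10 and 4.27 Mb from 34176368 to 38447283 on chromosome 12. Loss outweighed gain on each of the 4 arms. The lost and gained shares were 5.29% and 2.18% of 1512 regions on 10p, 5.85% and 2.39% of 2974 on 10q, 5.67% and 1.62% of 1358 on 12p, and 6.05% and 2.56% of 3868 on 12q. The highest ratio of lost to gained was 3.50 on 12p, where gained regions were scarcest.

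The density of peaks in each bin comes from the same 4 lists as the classes and is described here without counting as support. The share of the list that fell in a bin was lower in both resistant libraries than in both parental ones in 10 of 14 bins of chromosome 10 and 11 of 14 of chromosome 12, and higher in 0 of 28. Over all chromosomes such lower bins made up 21.9% of 301, and 67 of the 301 were higher in both resistant libraries. The mean resistant share over the mean parental share ran from 0.706 at 50 to 60 Mb to 1.14 at 130 to 140 Mb on chromosome 10. On chromosome 12 it ran from 0.607 at 70 to 80 Mb to 0.986 at 30 to 40 Mb. The 3 bins of chromosome 12 with the lowest ratios were those at 70 to 80, 80 to 90 (0.615) and 20 to 30 Mb (0.629).

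Scores were compared in the regions that all 4 lists held, where presence does not differ between lines. Each library's log2 score was set against that library's own median over the 19572 such regions of all chromosomes, and is called the centred score here. On chromosome 10 the median score was 15.8 and 15.6 (parental) and 10.5 and 17.9 (resistant), where the medians over all chromosomes were 13.8, 13.3, 10.7 and 18.8. The median centred scores were 0.20 and 0.23 (parental) and -0.03 and -0.07 (resistant). On chromosome 12 the median scores were 15.9, 16.2, 10.4 and 18.4, and the median centred scores were 0.21 and 0.28 (parental) and -0.04 and -0.03 (resistant). Both parental libraries thus stood above their own median and both resistant libraries slightly below theirs, and the lines did not overlap.

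Region by region, the median difference between the resistant mean and the parental mean of the centred score was -0.23 on the log2 scale on chromosome 10 (quartiles -0.63 and 0.18). On chromosome 12 it was -0.25 (-0.68 and 0.16). Chromosome 12 had the lowest median difference of the 23 chromosomes, chromosome 6 the next at -0.24, and chromosome 10 the third. Both resistant libraries were below both parental ones in 298 of 962 regions on chromosome 10 (31.0%) and 312 of 1082 on chromosome 12 (28.8%). Over all chromosomes that held for 18.7% of such regions. Both were above in 101 (10.5%) and 103 (9.52%), against 18.3%. The lean was therefore a shift of many regions, with most of them still overlapping between the lines.

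By arm the median score difference was -0.17 on 10p, -0.26 on 10q, -0.16 on 12p and -0.28 on 12q, so it was below 0 on each arm and further from 0 on the long arms. On 10p the library medians of the lines overlapped, at 0.03 and 0.23 (parental) and -0.10 and 0.07 (resistant). They did not overlap on 10q, 12p or 12q. By 10-Mb bin the median score difference was below 0 in 14 of 14 bins of chromosome 10, from -0.43 at 80 to 90 Mb to -0.02 at 40 to 50 Mb. It was below 0 in 13 of 14 bins of chromosome 12, against 44.5% of bins over all chromosomes. Its lowest values on chromosome 12 were neighbours on the long arm, -0.62 at 80 to 90 Mb and -0.53 at 70 to 80 Mb. The exception was the bin from 30 to 40 Mb, at 0.07, which was also the bin with the most even peak density. In the bin from 80 to 90 Mb the parental median centred scores were 0.09 and 0.42 and the resistant ones -0.57 and -0.16. The bin medians of both resistant libraries were below those of both parental ones in 8 of 14 bins of chromosome 10 and 12 of 14 of chromosome 12, against 25.2% of bins over all chromosomes.

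**Figure D3:**
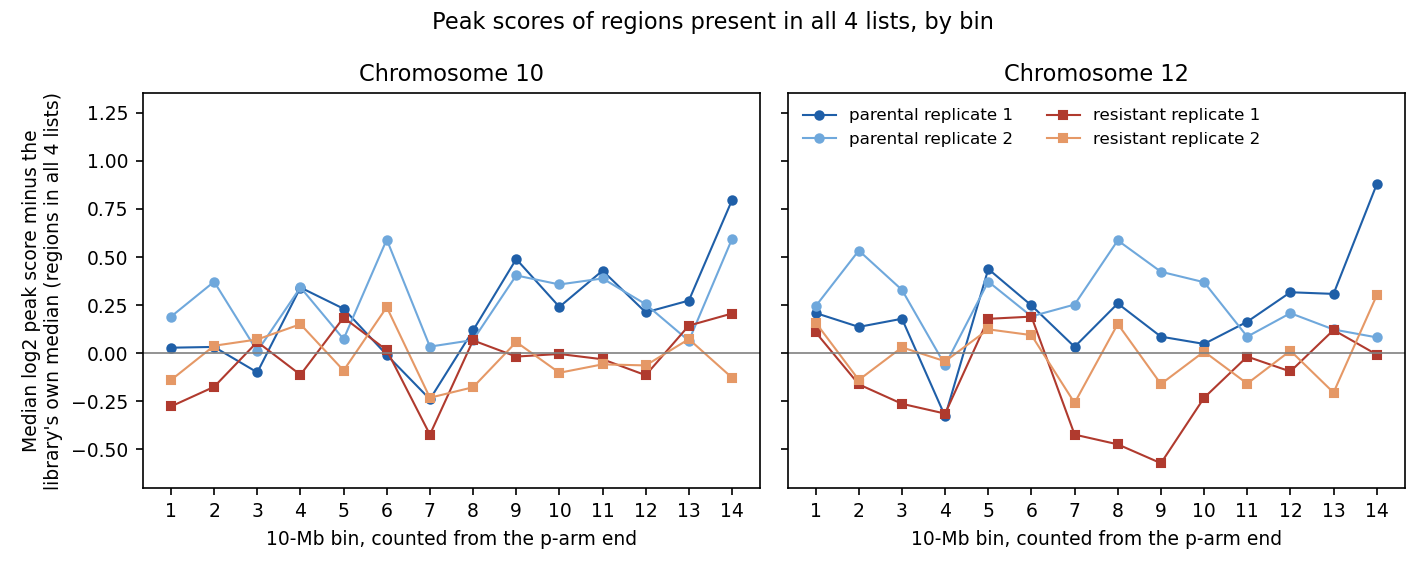
Median centred log2 score per library in each 10-Mb bin, over regions that all 4 lists held; 0 is the library's own median over all chromosomes. On chromosome 12 both resistant libraries (red squares) lie below both parental ones (blue circles) in 12 of 14 bins, most widely at the ninth bin, where they stand at -0.57 and -0.16 against 0.09 and 0.42.

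Single regions show what the classes hold. The strongest lost region of chromosome 10 was chr10:84046378-84049483, with scores of 15.7 and 15.9 in the parental libraries and no peak in the resistant ones. Next were chr10:48952736-48953240 (15.6 and 20.9) and chr10:114147944-114150354 (13.7 and 19.0). The first lay 274 kb and the second 243 kb from the nearest region in all 4 lists. Distances to regions of other kinds were not measured. On chromosome 12 the strongest lost region was chr12:122356292-122357006, at 25.04 and 22.2. It lay 2.32 kb from a region that all 4 lists held. The next were chr12:113147274-113148460 (17.5 and 21.7) and chr12:128043355-128045416 (33.1 and 15.5). Genes are not assigned to any of these regions here, because no gene annotation in hg19 was used.

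Deposited scores of gained and lost regions come from different libraries and were not centred here. By the weaker of these scores, the strongest gained regions stood below the strongest lost ones. On chromosome 10 they were chr10:116439936-116441779, with 11.96 and 14.6 in the resistant libraries, chr10:69922531-69925151 (11.35 and 14.98) and chr10:85834898-85835904 (12.4 and 9.19). Those of chromosome 12 were chr12:38447284-38448668 (11.6 and 17.2), chr12:2490091-2495153 (10.8 and 13.8) and chr12:75373127-75374703 (10.5 and 10.8). The region chr12:38447284-38448668 is the first one past the centromeric gap of chromosome 12.

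Among regions in all 4 lists, the 2 per chromosome with the highest lowest score are given next. That rule fixed their presence in both lines, and they need not hold the highest score of each library. On chromosome 10, chr10:33234911-33255044, 20134 bp wide, scored 173 and 103 (parental) and 75.4 and 142 (resistant). The region chr10:976028-979029 scored 70.7, 67.3, 63.0 and 120. On chromosome 12, chr12:66216857-66244153, 27297 bp wide, scored 225 and 89.6 (parental) and 109 and 147 (resistant). The region chr12:51631978-51634108 scored 93.0, 53.2, 61.8 and 94.8. The deposited scores of the lines overlapped in these 4 regions. After centring, both resistant libraries stood below both parental ones in chr10:33234911-33255044 (2.82 and 2.92 against 3.65 and 2.96) and above them in chr10:976028-979029 (2.56 and 2.68 against 2.36 and 2.34), and those of chromosome 12 still overlapped.

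Regions close to the edge of the class rule show how sharp it is. The weakest lost region of chromosome 10, chr10:5823764-5824737, had scores of 3.81 and 2.05, and that of chromosome 12, chr12:47741532-47743718, had 2.03 and 5.04, both next to the lists' minimum. Just outside, chr10:27541325-27542415 had 43.5 and 43.9 in the parental libraries, 13.3 in resistant replicate 1 and no peak in resistant replicate 2, and so counts as shared. Likewise chr12:15851482-15856118 had 30.8 and 37.4, none in resistant replicate 1 and 23.1 in resistant replicate 2. A peak in 1 parental library alone could be high too, at 26.9 in parental replicate 1 for chr10:47769104-47769405 and 16.9 in parental replicate 2 for chr12:8695337-8697305.

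The regions of all 4 lists with the widest score differences were singled out after their values were seen. The region chr10:49196309-49198415 scored 46.1 and 38.0 (parental) and 7.99 and 9.67 (resistant). On chromosome 12, chr12:39811816-39814499 scored 10.5 and 35.1 against 2.71 and 5.30, and chr12:12910825-12913558 scored 17.2 and 31.1 against 3.17 and 8.93. In the other direction, chr10:116363833-116367234 scored 3.73 and 5.08 (parental) and 25.8 and 18.7 (resistant). It lies in the same 10-Mb bin as the strongest gained region of that chromosome. In the 4 regions just named the lines did not overlap, centred or not.

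Lost and gained regions also occurred in runs, meaning neighbours of 1 class with no shared region and no region of the opposite class between them. The longest lost run of chromosome 10 had 5 regions from 44357691 to 45193364, over 836 kb. Its scores ran from 5.996 to 22.6, and 9 single-library regions lay between its members, all of them parental. In those 836 kb no resistant library had a peak. The longest lost run of chromosome 12 was much denser, with 4 regions in 17.1 kb from 53853515 to 53870627 and scores of 2.54 to 9.44. Over the 23 chromosomes the longest lost run had 2 to 10 regions, with a median of 4.

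Gained runs were looked at after their values were seen. The longest on chromosome 12 had 7 regions, a length that no gained run on the 23 chromosomes exceeded, against a median of 4. It spans 21.6 kb from 120117279 to 120138847, and its scores in resistant replicate 1 and 2 ran from 4.33 to 24.2. The member with the highest weaker score was chr12:120127668-120129527, at 11.7 and 9.79. The region chr12:120140847-120143242, present in all 4 lists, lies close behind the run. It scored 3.25 and 2.89 (parental) and 14.02 and 20.8 (resistant), the widest upward score difference among such regions of that chromosome. On chromosome 10 the longest gained run had 2 regions, chr10:7737480-7743366 (5.95 and 24.5) and chr10:7747159-7748885 (5.44 and 16.6).

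The rule that picks the regions reads no RNA value, and single genes were therefore tested. The choice of these 2 chromosomes was made with earlier results of these data known, RNA included, so their medians and ranks are descriptions. For the 501 tested genes of chromosome 10 the median log2 fold change of the resistant over the parental line was -0.24, and for the 669 of chromosome 12 it was -0.18. Over all 12792 genes tested it was 0.02, and over the genes of the other chromosomes 0.04. Of the chromosome 10 genes 69.7% and of the chromosome 12 genes 67.0% were below 0, against 48.5% of all genes. These 2 medians were the lowest of the 23 chromosomes. A bulk level cannot tell fewer expressing cells from less RNA per cell.

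edgeR's quasi-likelihood test, adjusted by the Benjamini-Hochberg method over all genes at a threshold of 0.05, called 815 genes in all, 6.37% of those tested. It called 3.41% lower and 2.96% higher. On chromosome 10, 30 genes fell (5.99%) and 7 rose (1.4%). On chromosome 12, 22 fell (3.29%) and 16 rose (2.39%). The share that fell was thus above the background on chromosome 10 and close to it on chromosome 12, and the shares that rose were below it on both. Counts depended on the library left out. The 37 calls of chromosome 10 became 19 without parental replicate 1 or without parental replicate 2, 274 without resistant replicate 1 and 180 without resistant replicate 2, which is 3.73%, 3.73%, 54.4% and 35.4% of its genes tested. The 38 calls of chromosome 12 became 14, 15, 367 and 256 in the same order, or 2.03%, 2.17%, 54.2% and 37.4%. Over all genes the same fits called 3.22%, 3.07%, 52.8% and 35.1%, so the counts moved with the background. The lone library of a line is assumed to vary like the other line in these fits, and the parental pair was the closer one.

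The shift itself is wider than the calls. Both resistant libraries were below both parental ones for 261 genes of chromosome 10 (52.1%) and 299 of chromosome 12 (44.7%), against 29.7% of all genes tested. Both were above for 79 (15.8%) and 114 (17.0%), against 30.9%. It was present in each resistant library. Set against the mean of the parental pair, the median gene of chromosome 10 was at -0.18 in resistant replicate 1 and -0.28 in replicate 2, and that of chromosome 12 at -0.17 and -0.19. Chromosome 10 took 3.67% and 3.68% of parental counts and 3.19% and 2.87% of resistant counts, and chromosome 12 took 6.19% and 6.19% against 5.53% and 5.69%. The groups did not overlap on either chromosome, but the other chromosomes were not counted this way. Such shares of counts weigh abundant genes most, so they do not show how many genes shifted.

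Gene order gave a view along each chromosome that does not depend on the build of the peaks. In windows of 25 neighbouring tested genes, 19 of 20 windows of chromosome 10 and 23 of 26 of chromosome 12 had a median log2 fold change below 0, against 46.0% of 493 windows over all chromosomes. In 18 and 19 of them both resistant libraries were below the parental mean, against 32.7% of all windows. On chromosome 10 the lowest window, from FAM160B1 to SEC23IP on the long arm, had a median of -0.40, and the highest, from FANK1 to SPRN at the end of that arm, had 0.01. The lowest of chromosome 12, from ATXN7L3B to TMTC3, had -0.44. The 3 windows above 0 were ZBTB39 to METTL21B on the long arm (0.20) and the first windows of the short arm, SLC6A13 to DYRK4 (0.09) and NDUFA9 to USP5 (0.08).

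By arm the RNA median was -0.32 for the 112 genes of 10p, -0.23 for the 389 of 10q, -0.12 for the 160 of 12p and -0.21 for the 509 of 12q. The arm with the RNA median nearest 0, 12p, was also the one with the score difference nearest 0, at -0.16. The short arm of chromosome 10 did not follow that order, with the lowest RNA median of the 4 and a score difference of -0.17.

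**Figure D4:**
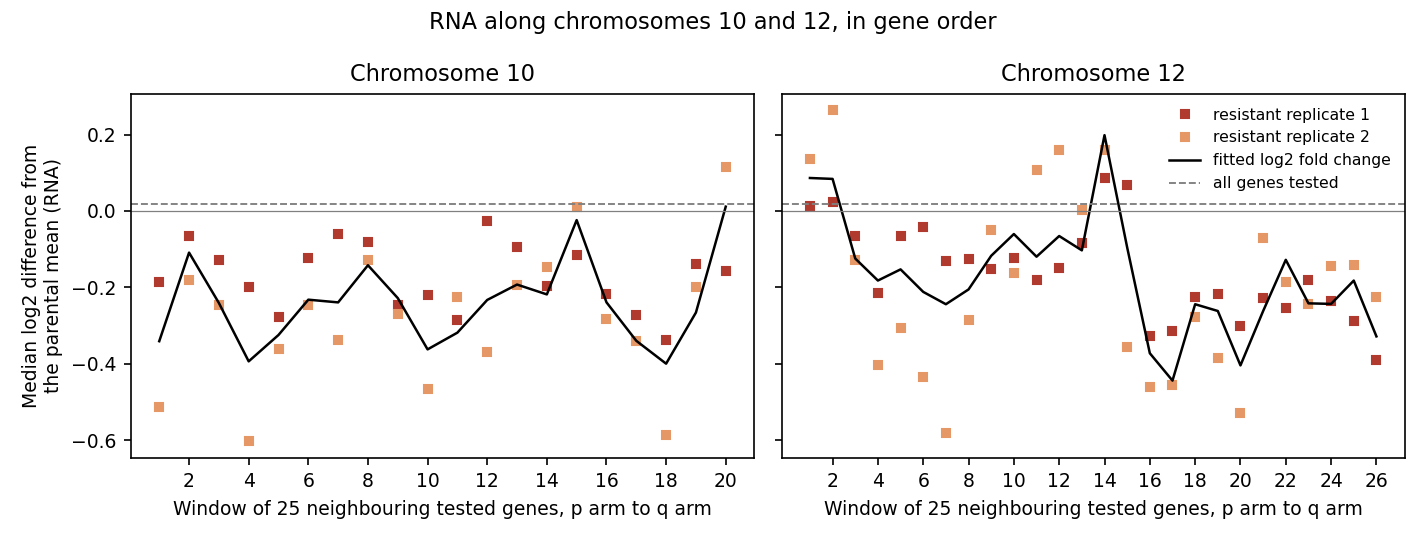
Median log2 difference of RNA from the parental mean in successive windows of 25 tested genes, ordered from the p arm to the q arm, for each resistant library (squares) and as fitted (line); the dashed line is the median of all genes tested, 0.02. The line lies below 0 in 19 of 20 windows of chromosome 10 and 23 of 26 windows of chromosome 12.

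Set side by side over the 23 chromosomes, the H3K27ac score difference and the RNA median went together, with Pearson's r of 0.89 and Spearman's rho of 0.84 (n = 23). Without chromosomes 10 and 12 the values were 0.84 and 0.79 (n = 21). The lost share and the RNA median had an r of -0.85 and a rho of -0.85. These are descriptions with no test, since every chromosome comes from the same 4 peak lists and the same 4 RNA libraries. Chromosome 6, with a score difference next to that of chromosome 12, had an RNA median of -0.11, the fifth lowest.

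**Figure D5:**
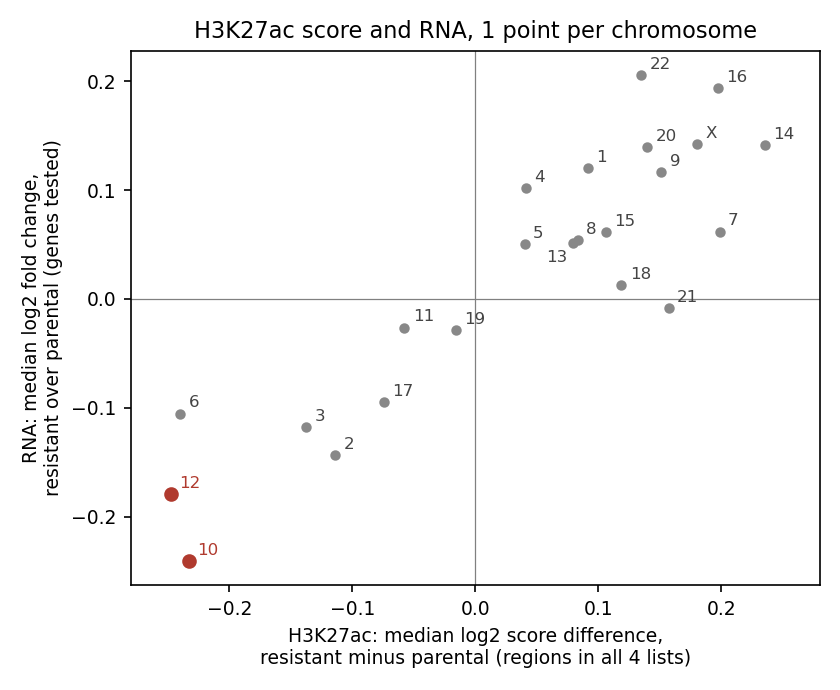
For each of 23 chromosomes, the median log2 H3K27ac score difference over regions in all 4 lists (horizontal axis) against the median log2 fold change of RNA over its tested genes (vertical axis). Chromosomes 10 (-0.23 and -0.24) and 12 (-0.25 and -0.18), in red, lie at the lower left.

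Genes of the 2 chromosomes were next grouped by role. Levels from here on are in CPM of the library size scaled by TMM (trimmed mean of M-values), as mean ± SD of 2 libraries. Against each list's counts stand those of all genes tested, of which edgeR called 3.41% lower and 2.96% higher, DESeq2 called 5.76% lower and 4.76% higher, and 27% had an unadjusted edgeR p under 0.05. Over the 1170 tested genes of these 2 chromosomes 4.44% were called lower, 28.5% had such a p, and the median log2 fold change was -0.20. Lists this small do not show that a list differs from its chromosomes, and no such test was made. Of 20 tested receptors and secreted ligands, 3 fell (15%) and 1 rose (5%), with a median log2 fold change of -0.07, and DESeq2 called 4 lower and 0 higher. DKK1, a secreted Wnt antagonist on 10q, was at 5.65 and 4.46 CPM in the parental and 0.129 and 0.233 in the resistant libraries, which rests on 2 and 3 resistant counts. Its log2 fold change was -4.76 ± 0.48 (SE, edgeR adjusted p = 0.00891). The SE given for genes is back-calculated, as the log2 fold change over the square root of the quasi-likelihood F statistic. It is approximate and may be too small where counts are few, as for DKK1. GFRA1, the GDNF coreceptor that presents the ligand to RET, fell from 59.7 ± 0.91 to 13.6 ± 0.113 CPM (edgeR adjusted p = 0.00337). NRP1, a coreceptor for semaphorins and VEGF, fell from 128 ± 0.832 to 64.6 ± 7.57 (edgeR adjusted p = 0.0235). INHBE, an activin beta subunit on 12q, rose from 0.682 and 0.582 CPM to 2.59 and 2.56 (edgeR adjusted p = 0.0439). The call of INHBE also ended with DESeq2 (adjusted p = 0.0725) and with no filter beyond 1 count (edgeR adjusted p = 0.054). For INHBE and NRP1 the call ended without either parental library, at edgeR adjusted p of 0.273 and 0.364 for INHBE and 0.165 and 0.187 for NRP1.

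Of 31 tested signal transduction genes, 1 fell (3.23%) and 0 rose, 15 had an unadjusted p under 0.05 (48.4%), and the median log2 fold change was -0.59. DESeq2 called 5 lower and 0 higher. Both resistant libraries were below both parental ones for 26 of the 31 (83.9%), against 47.9% of the tested genes of these 2 chromosomes and 29.7% of all genes tested. The gene called was NUAK1, an AMPK-related kinase, at 61.7 and 59.6 CPM (parental) and 36.5 and 27.7 (resistant; edgeR adjusted p = 0.0446). Without parental replicate 1 or 2 its edgeR adjusted p was 0.271 and 0.226.

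Of 32 tested genes listed as transcription factors, 1 fell (3.12%), 0 rose and 7 had an unadjusted p under 0.05 (21.9%, below the share of all genes), with a median of -0.19, close to that of the chromosomes. DESeq2 called the same gene, MSRB3. MSRB3 is a methionine sulfoxide reductase, which reduces oxidised methionine, and not a transcription factor, so 0 factors of the list passed in either test. It stood at 73.9 and 73.8 CPM (parental) and 41.6 and 26.9 (resistant), with an edgeR adjusted p of 0.0478, and the call ended without parental replicate 1 (0.0952) and without parental replicate 2 (0.102).

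Of 35 tested adhesion, matrix and cytoskeleton genes 4 fell (11.4%) and 0 rose, 13 had an unadjusted p under 0.05 (37.1%), and the median was -0.27. DESeq2 called 7 lower and 0 higher. DCN, a small leucine-rich proteoglycan of the matrix, was at 11.98 and 13.3 CPM in the parental and 1.03 and 0.233 in the resistant libraries, a log2 fold change of -4.24 ± 0.50 (SE, edgeR adjusted p = 0.0129). DCN also marks stromal cells, and COL1A1, another such marker, had 236 and 219 parental and 98 and 177 resistant counts. PDGFRB had 250 and 230 against 299 and 245. The part of other cells in this result was not tested. PDLIM1, a PDZ and LIM protein that binds actinin, fell from 110 ± 3.92 to 23.8 ± 6.43 CPM (edgeR adjusted p = 0.00891). ADD3, the gamma subunit of the spectrin-binding protein adducin, fell from 208 ± 1.90 to 68.7 ± 24.6 (edgeR adjusted p = 0.025). COL13A1, a transmembrane collagen, fell from 5.29 ± 1.29 to 1.07 ± 0.31 (edgeR adjusted p = 0.0292), a call that ended without parental replicate 2 (0.104).

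Of 30 tested cell cycle and p53 pathway genes, edgeR called 0 and DESeq2 0, 4 had an unadjusted p under 0.05 (13.3%), and the median was 0.01. The 2 most abundant tested members of this list were CDK4 and KIF5B. CDK4, the G1 kinase that pairs with D-type cyclins, was at 171 and 167 CPM in the parental and 188 and 244 in the resistant line (edgeR adjusted p = 0.245). KIF5B, a kinesin motor of cargo transport and so an odd member of this list, was at 154 and 161 against 143 and 81.5 (edgeR adjusted p = 0.295). Both passed without resistant replicate 1, at edgeR adjusted p of 0.00139 and 0.000873.

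Metabolic enzymes and transporters had calls in both directions, 3 that rose (7.5%) and 6 that fell (15%) of 40 tested, with a median of -0.18. DESeq2 called 4 higher and 9 lower. ALDH2, the mitochondrial aldehyde dehydrogenase, rose from 76.6 and 84.1 CPM to 197 and 154 (edgeR adjusted p = 0.0235). GOT1, the cytosolic aspartate aminotransferase, rose from 50.6 ± 4.21 to 86.9 ± 2.17 CPM (edgeR adjusted p = 0.0387). AKR1C3, an aldo-keto reductase of steroid metabolism, rose from 208 ± 2.31 to 371 ± 7.19 (edgeR adjusted p = 0.0257), and is uncertain because its near-identical neighbours AKR1C1 and AKR1C2 can share its reads. The call of each of these 3 ended without parental replicate 1, at edgeR adjusted p of 0.196, 0.393 and 0.454, and without parental replicate 2, at 0.115, 0.586 and 0.488.

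Among the genes that fell was ABCC9, the sulfonylurea receptor subunit of a potassium channel, from 8.08 and 9.40 to 1.75 and 2.25 CPM (edgeR adjusted p = 0.017). SLC2A3, a glucose transporter, fell from 34.1 ± 1.62 to 14.5 ± 0.326 (edgeR adjusted p = 0.016), and PFKFB3, which makes the activator of phosphofructokinase, from 346 ± 11.1 to 172 ± 17.8 (edgeR adjusted p = 0.0209). PSAP, the precursor of the lysosomal saposins, had the second-highest CPM of the tested genes of chromosome 10 and fell from 2706 ± 48.6 to 1433 ± 136 (edgeR adjusted p = 0.0292). HSP90B1, an ER chaperone, and ALDH18A1, an enzyme of proline synthesis, fell with log2 fold changes of -0.93 and -0.80. The call ended without parental replicate 1 for SLC2A3 (edgeR adjusted p = 0.0687), PFKFB3 (0.194), PSAP (0.364), HSP90B1 (0.303) and ALDH18A1 (0.425). For the last 4 it ended without parental replicate 2 too (0.150, 0.330, 0.335 and 0.369).

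Among genes of a mean log2 CPM of at least 2, the largest falls of chromosome 10 outside these lists were ANKRD1, H2AFY2, C10orf99 and KIAA1462. ANKRD1, a muscle ankyrin repeat protein and known YAP target, fell from 11.1 and 11.1 CPM to 1.94 and 1.55 (log2 fold change -2.66 ± 0.27 SE, edgeR adjusted p = 0.00895). H2AFY2 (now MACROH2A2), a macroH2A histone variant of repressed chromatin, fell from 15.6 and 12.1 to 1.75 and 3.26 (edgeR adjusted p = 0.0201). C10orf99 (now GPR15LG), a ligand of the receptor GPR15, and KIAA1462 (now JCAD), a junction protein, had log2 fold changes of -2.09 and -2.09. The lines did not overlap in these 4, as the rule that named them required.

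With the same limit on abundance, the largest rise of chromosome 10 was that of OGDHL, a relative of the 2-oxoglutarate dehydrogenase of the citric acid cycle. It stood at 19.0 and 21.1 CPM in the parental and 106 and 127 in the resistant libraries, a log2 fold change of 2.53 ± 0.18 (SE, edgeR adjusted p = 0.00274). TSPAN15, a tetraspanin that partners the protease ADAM10, rose from 35.9 ± 0.251 to 77.5 ± 11.2 CPM (edgeR adjusted p = 0.0229). Its call ended without parental replicate 1 (0.154) and without parental replicate 2 (0.173).

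The largest fall of chromosome 12 was FAM101A (now RFLNA), a refilin that binds filamin, from 38.4 and 32.2 CPM to 0.453 and 0.388. FAM101A had 7 and 5 resistant counts, where the back-calculated SE may be too small. Its log2 fold change was -6.35 ± 0.28 (SE, edgeR adjusted p = 0.00198). PTPRB, a receptor tyrosine phosphatase best known from endothelium, fell from 16.2 and 13.1 to 2.85 and 2.64 (edgeR adjusted p = 0.00924), while CDH5, an endothelial marker, was at 0 in every library. SLC15A4, a lysosomal histidine and peptide transporter, and IQCD (now DRC10), a component of the dynein regulatory complex of cilia, had log2 fold changes of -1.58 and -1.38.

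The largest rise of chromosome 12 with that limit was that of LIN7A, a scaffold protein of cell polarity, from 4.38 and 3.30 CPM to 31.6 and 23.2 (log2 fold change 2.84 ± 0.27 SE, edgeR adjusted p = 0.00788). B4GALNT1, which makes the gangliosides GM2 and GD2, rose from 5.65 and 5.23 to 21.5 and 17.2 (edgeR adjusted p = 0.0135). LIN7A lies in the lowest window of that chromosome, ATXN7L3B to TMTC3, and B4GALNT1 in the highest, ZBTB39 to METTL21B. METTL7B (now TMT1B), a methyltransferase, RASAL1, a GTPase-activating protein of Ras, and SPSB2, a SOCS box protein, had log2 fold changes of 1.67, 1.44 and 1.13. Without parental replicate 1 the edgeR adjusted p of these 3 was 0.0778, 0.0787 and 0.0787, so each call ended there, and SPSB2 also lost its call without parental replicate 2 (0.287).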

How the data were processed

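The authors deposited 1 peak list per H3K27ac library, giving each peak's position and score, and RNA tables of estimated counts and TPM per gene. Per the submitters' processing notes, STAR, RSEM and DESeq2 1.40.2 were used with GRCh38 and hg19, without roles. The sources used here do not give the peak caller, the use of inputs or the scale of the deposited score. Peaks end at up to 135334304 on chromosome 10, beyond that chromosome's end in GRCh38, so coordinates were read as hg19.

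Peaks were merged and counted with Python 3.11.15 and pandas 2.3.3. The deposited estimated counts (3.16% of them fractional) were rounded. The 12792 genes kept by filterByExpr were scaled by TMM and tested with edgeR 4.0.16's quasi-likelihood test (R 4.3.3), line as the only term, with Benjamini-Hochberg adjustment at 0.05; 12593 matched a chromosome in a RefSeq table (GRCh38.p14), used for names, chromosome and order only. Deposited TPM was kept beside the counts and not tested. The peak merging and the RNA fit were tested on simulated data.

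Named genes were the 6 largest rises and falls per chromosome among called genes whose mean log2 CPM reached 2 and whose lines did not overlap, and up to 2 rises and 2 falls (or the 2 most abundant members) of each of 6 lists. GOT1, NRP1, ADD3, PFKFB3, PSAP, HSP90B1 and ALDH18A1 are the other called members of those lists, named with their values known, as were the gained runs and the regions of widest score difference. Regions named by rule were the 3 lost and 3 gained regions per chromosome with the highest weaker score, 2 in all 4 lists, the longest lost runs and the regions at the edge of the rule. The chromosomes, lists and rules were chosen with earlier results of these data known. Same-numbered libraries were not taken as pairs.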

Additional observations from a re-analysis of the deposited data

How the results depend on the processing

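Regions of low score decide the classes, the score scale is unknown, and 2 libraries per line allow no exact two-sided p below 0.333, which limits every statement on peaks. The lost share of chromosome 12 (5.95%) was 5.30% with scores of 5 or more, 5.28% with equally long lists of best peaks and 5.02% where a library had to cover 50% of a region. Merging within 500 bp moved it less, and the share of chromosome 10 and both gained shares moved less than their interval under these 4 settings. Leaving out 1 library gave lost shares of 7.64 to 29.4% (chromosome 10) and 7.37 to 32.9% (chromosome 12), and gained shares of 4.32 to 13.6% and 3.77 to 12.2%. With 5-Mb bins the range of the lost share over chromosome 12 was 7.52 percentage points. As a difference of rank percentiles, another unit, the score difference was -5.36 and -6.09 on chromosomes 10 and 12. Leaving out 1 library it was -0.27 to -0.21 and -0.28 to -0.23.

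Genes called numbered 60 on chromosome 10 and 68 on chromosome 12 with DESeq2's Wald test (10.5% of all genes), 5 and 3 at a threshold of 0.01 (0.758%), and 19 to 274 and 14 to 367 with 1 library left out (3.07 to 52.8%). With the replicate number as a block, 82 and 104 genes were called (14.7% of all genes). RNA deviations of same-numbered libraries had a correlation of -0.0464, and the other way of pairing gives 0.0464 by construction. With 2 libraries per line this cannot decide whether the numbers mark pairs. In the peak lists, replicate 2 had the wider peaks in both lines. The chromosome's median relative to all genes was below 0 under every setting run, from -0.28 to -0.20 on chromosome 10 and -0.20 to -0.18 on chromosome 12. No direction of the 36 genes that were named or checked reversed in 357 refits, of which 36 ended a call, and the threshold of 0.01 ended 26.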
